A study of Saccharomyces cerevisiae with 8 samples.

Results

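Full-length transcripts of mid-late meiosis (T2) were compared with those of early meiosis (T1) in SK1 budding yeast, a strain background that sporulates rapidly and synchronously. The comparison took the libraries titled T2 and T1, which are 4 of the 8 libraries of the series, with 2 independent replicates in each stage. All libraries came from the MATa/MATα diploid FW2795, so every stage shared the same alleles. These were ho::LYS2 with lys2 and ura3, the hisG insertions leu2::hisG, his3::hisG and trp1::hisG, and 3 constructs. The first, irt1::pCUP-3HA-IME1::HphMX, puts IME1 under a copper-inducible promoter. The second, ndt80::pGAL-NDT80::TRP1, puts NDT80 under a GAL promoter, which the third, ura3::pGPD1-GAL4(848).ER::URA3, opens when estradiol is given. Cells were moved to sporulation medium (SPO), and 50 μM CuSO4 was given after 2 h to switch on IME1. The T1 pool joined time points from 3 to 6 h in SPO. For T2, 1 μM β-estradiol was given after 6 h to switch on NDT80, and time points from 7 to 9 h were pooled in equal proportions. The series also holds a pre-meiotic pool (pm, 0 to 2 h in SPO) and a pool of cells moved from SPO at 6 h to rich medium YPD (T3, 15 to 120 min), which entered the fit and are given as levels. T3 thus branches off before T2 and does not follow it. Each pool is one strain and averages over its time points, so the order of events within a stage was not resolved.

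Ime1 is the transcription factor that starts meiosis in budding yeast and turns on genes of DNA replication and recombination. Ndt80 acts later, at the exit from meiotic prophase, where it activates genes of the meiotic divisions and of spore formation. TIF-seq reads both ends of the same RNA molecule, so each molecule has a transcription start site (TSS) and a transcription end site (TES). Many yeast genes have more than one TSS, and a start upstream of the main one or inside the gene gives a longer or shorter transcript. The deposited coordinates are those of the SK1 assembly, for which no gene annotation was used here. Loci are therefore given by chromosome, position and strand and carry no gene name, and the stages were not checked against marker genes.

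The T1 libraries held 1820826 and 962355 yeast molecules and the T2 libraries 1668155 and 775322, for replicates 1 and 2. Molecules had a median length of 900 and 916 nt in T1 and of 863 and 772 nt in T2. T2 replicate 2 stood apart by short molecules, since 6.47% of its molecules were under 200 nt, against 1.05% in T2 replicate 1 and 0.873% and 0.400% in T1. Across the tested start bins, log2 levels of the replicates had a Pearson r of 0.898 in T1 and 0.787 in T2, as a description over 13986 bins that share these libraries. Values without either T2 library are given with the results that depend on them.

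The T2 pool drew more of its molecules from few start sites than the T1 pool did. Molecules were counted by their 5′ end in bins of 100 nt on each strand. The 100 most used start bins of a library held 23.9% and 24.1% of the molecules in T1, and 37.9% and 33.5% in T2. The groups did not overlap. An exact two-sided permutation test of 2 against 2 libraries has 6 regroupings, and the observed split and its mirror image are 2 of them, so no such test could pass. The 10 most used start bins held 4.77% in each T1 library, and 12.6% and 9.90% in T2. The most used bins that together held 50% of the molecules numbered 478 and 417 in T1, but 229 and 287 in T2. The 100 most used end bins, counted by the 3′ end, gave much the same picture, with 24.4% and 24.3% in T1 and 37.9% and 33.1% in T2. In the other stages the 100 most used start bins held 33.5% and 35.2% (pm) and 48.0% and 49.4% (T3).

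**Figure D1:**
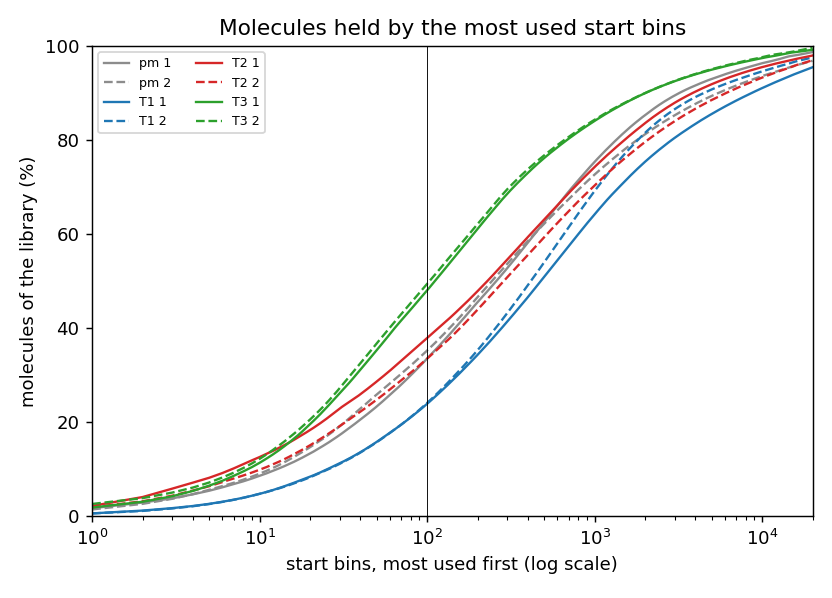
Cumulative share of a library's molecules (y axis, percent) against its start bins ranked from most to least used (x axis, log scale), with solid lines for replicate 1 and dashed lines for replicate 2. At the vertical line, 100 bins, the T1 libraries lie at 23.9% and 24.1% and the T2 libraries at 37.9% and 33.5%.

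The most used starts of T1 stayed in use in T2, while 4 of the 5 most used starts of T2 were much lower in T1. The most used T1 start, E1 (chr12:859501-859600, plus strand), gave 11143 and 5076 molecules in T1 and 4354 and 1659 in T2. Its log2 change was -0.40 ± 0.31 (SE), and it did not pass the test (limma voom, adjusted p = 0.385). E2 (chr14:510901-511000, minus strand) gave 10843 and 5175 molecules in T1 and 7241 and 3220 in T2. Its log2 change was 0.44 ± 0.31 (adjusted p = 0.342) and turned negative, to -0.41, with library totals as the scale. E4 (chr8:164301-164400, plus strand) and E5 (chr13:794601-794700, plus strand) had log2 changes of -0.12 ± 0.33 and -0.67 ± 0.31 (adjusted p = 0.828 and 0.133). With library totals as the scale, E1 and E5 were called lower in T2, with log2 changes of -1.24 and -1.54. E4 then had a log2 change of -0.95 (adjusted p = 0.0162), short of the 2-fold that a call needs.

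E3 (chr3:147201-147300, minus strand) was among the most used starts of both stages. It gave 7878 and 5765 molecules in T1, and 16907 and 4787 in T2, a log2 change of 1.48 ± 0.35 (adjusted p = 0.00332). The call was lost with library totals as the scale (log2 change 0.65, adjusted p = 0.0870) and with the upper quartile (0.53, adjusted p = 0.456). It was also lost without T1 replicate 1 (1.09, adjusted p = 0.0769) and without T2 replicate 1 (0.81, adjusted p = 0.104). The same start gave 4603 and 8154 molecules in pm but 44 and 10 in T3.

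The most used start of T2, L1 (chr4:714101-714200, minus strand), rose from 6919 and 2613 molecules to 36757 and 14895. Its share was 0.380% and 0.272% in T1 and 2.20% and 1.92% in T2. Its log2 change was 3.48 ± 0.31 (adjusted p = 1.5e-07). L2 (chr11:267701-267800, plus strand) rose from 2621 and 688 molecules to 21587 and 9135, a log2 change of 4.36 ± 0.38 (adjusted p = 1.08e-07). Both were already transcribed in every library of the series. L4 (chr5:400201-400300, minus strand) was near 0 before T2. It rose from 32 and 25 molecules to 16277 and 7090, a log2 change of 9.63 ± 0.61 (adjusted p = 3.71e-09).

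Nearly all L2 molecules ended in the same 100-nt bin in both stages. In at least 99.5% of its molecules in each of the 4 libraries, the 3′ end lay in chr11:268601-268700. L1 molecules ended in chr4:713401-713500 in 73.7% and 74.97% of cases in T1 and in 67.7% and 63.0% in T2. L4 molecules differed between the T2 replicates. In T2 replicate 1, 9.84% of L4 molecules were under 200 nt and their median length was 887 nt. In T2 replicate 2, 63.3% were under 200 nt and the median was 126 nt.

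Over all start bins, 2610 were higher in T2 than in T1 and 589 were lower. A bin was tested when it held on average at least 5 molecules over the T1 and T2 libraries, which 13986 bins did, and called when limma voom gave a p under 0.05 after Benjamini-Hochberg adjustment and a change of at least 2-fold. The higher bins were 18.7% of those tested and the lower bins 4.21%. Both counts moved with the libraries in the fit. Without T1 replicate 1, 1697 bins were higher and 156 lower, and 147 of the 589 lower bins were called again. Without T2 replicate 2, 3000 were higher and 924 lower, and without T3 replicate 1, 2426 and 390. With only the T1 and T2 libraries in the fit, 1729 were higher and 285 lower. The balance also depended on how library sizes were set. With the median of ratios used here, the median log2 change of all tested bins was 0.09. With library totals it was -0.76, and 1916 bins were higher (13.7%) and 2196 lower (15.7%). With the upper quartile it was -0.85, and 1450 bins were higher and 1331 lower. The bins called the same way under all 3 scalings were 1450 higher and 589 lower, and no higher bin of the main fit was called lower under another scaling.

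**Figure D2:**
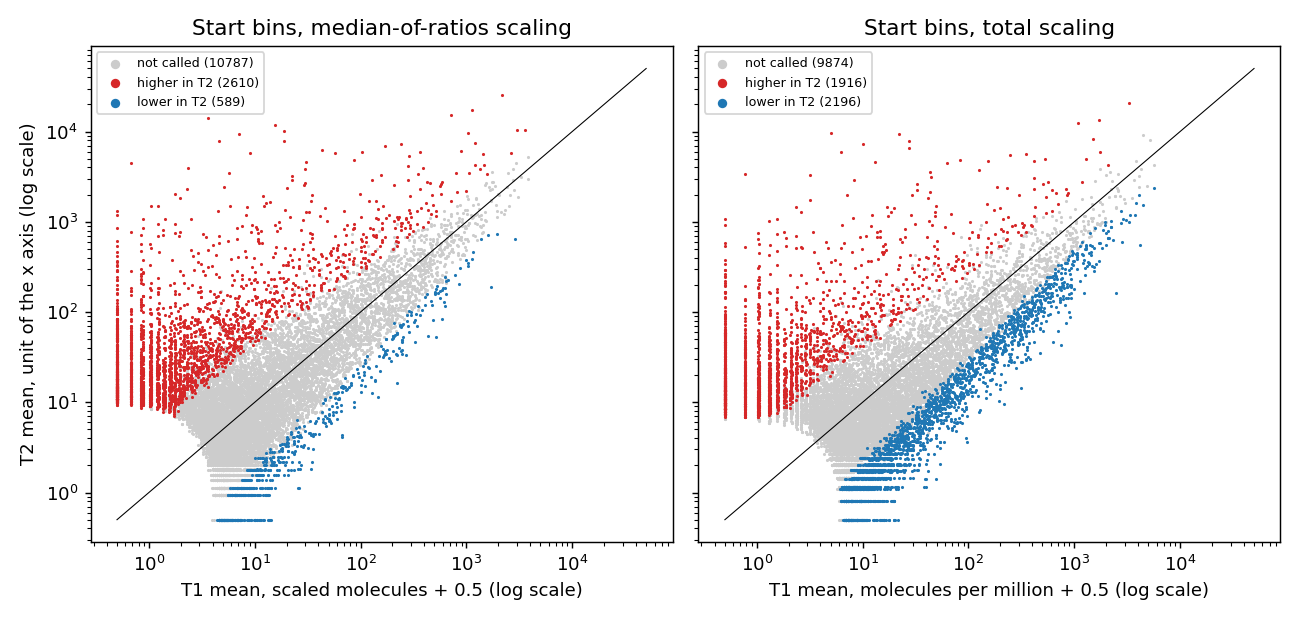
Mean level of each of the 13986 tested start bins in T2 (y axis) against T1 (x axis), on log scales, in scaled molecules (left) and relative to the library total (right), with called bins in colour and a line of equal level. Higher and lower bins number 2610 and 589 on the left and 1916 and 2196 on the right.

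With the median of ratios as the scale, rises were larger than falls. The median log2 change of the higher bins was 4.28 and that of the lower bins -2.92, values that the calling rule and the depth of T2 set in part. They also depend on the scale, since library totals moved the median of all tested bins from 0.09 to -0.76. This makes rises smaller and falls larger, and the medians of called bins were not taken on that scale. Among the higher bins, 438 rose by at least 64-fold as fitted. None of the lower bins fell that far, but their median scaled T1 levels of 15.6 and 10.6 left little room for such a fall. No molecule was counted in either T1 library for 475 of the 13986 tested bins, and all 475 were among the 2610 higher bins. Bins without T1 molecules pass the filter only through their T2 molecules, so this count is a description. The higher bins held 54.5% and 45.6% of all T2 molecules but 8.95% and 9.51% of the T1 molecules, which the calling rule favours. The same bins held 10.8% and 12.2% of the molecules in pm and 6.47% and 6.97% in T3. In these bulk pools, fewer cells with a transcript and less of it per cell cannot be told apart. Every chromosome took part, with 14.9% (chromosome 5) to 23.6% (chromosome 6) of its tested bins higher. The strands were close, with 18.8% of the plus-strand bins and 18.5% of the minus-strand bins higher.

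The 12 largest rises, named R1 to R12, were starts that were silent or nearly silent outside T2. They were taken from called bins with a mean of at least 50 molecules in which each T2 library lay above each T1 library, leaving at least 500 nt between bins on a strand. R1 (chr2:258101-258200, minus strand) gave 1 and 0 molecules in T1 and 7638 and 1658 in T2. The pooled ratio of T2 to T1 was 20304, with a 95% exact counting interval from 3643 to 802053, which covers counting error only. R1 gave 3 and 4 molecules in pm and 6 and 0 in T3. Its molecules were long, with a median of 1278 nt, and 74.3% of them ended in chr2:256801-256900.

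R2 (chr9:370901-371000, minus strand) had no molecule in T1, and 1682 and 895 in T2. It was at least 1876-fold higher in T2, against a floor of 3 counts over both T1 libraries. Of its molecules, 96.9% ended in chr9:370301-370400, and that end bin had a log2 change of 12.82 ± 0.76 (adjusted p = 3.72e-06). R3 (chr3:163001-163100, minus strand) likewise had no molecule in T1, and 1842 and 587 in T2, which was at least 1768-fold higher. R7, R10 and R12 were also at 0 in both T1 libraries. R7 (chr10:354501-354600, minus strand) gave 865 and 124 molecules in T2, at least 720-fold higher. R10 (chr2:520601-520700, plus strand) gave 284 and 323, at least 442-fold higher. R12 (chr13:134101-134200, minus strand) gave 242 and 295, at least 391-fold higher. These starts held at most 1 molecule in a pm library and 3 in a T3 library.

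R4 (chr10:355101-355200, plus strand) and R7 were separated by 500 nt between the near edges of their bins and ran away from each other. R4 rose from 4 and 3 molecules to 4881 and 2835, a log2 change of 10.95 ± 0.83 (adjusted p = 3.18e-08). R4 molecules had a median length of 861 nt, and 96.4% of them in T2 replicate 1 and 74.5% in T2 replicate 2 ended in chr10:356001-356100. R7 molecules were less uniform, and 39.2% and 17.7% of them ended in their most used end bin, chr10:353501-353600. In T1, 24.0 scaled molecules per library crossed the R7 start on the opposite strand.

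R5 (chr16:302201-302300, plus strand) and R9 (chr15:716901-717000, minus strand) had the most molecules of the 12 in T2 replicate 2, and the most after R8 in T2 replicate 1. R5 rose from 6 and 8 molecules to 13372 and 2922, a log2 change of 10.84 ± 1.00 (adjusted p = 1.89e-07). R9 rose from 18 and 9 molecules to 15380 and 4138, a log2 change of 10.28 ± 0.86 (adjusted p = 8.59e-08). R5 molecules had a median length of 774 nt and R9 molecules one of 918 nt. R6 (chr12:158101-158200, plus strand) went from 0 and 1 molecules to 1552 and 276. R11 (chr5:543801-543900, minus strand) went from 2 and 0 to 1020 and 413, and 97.1% of its molecules ended in chr5:542901-543000.

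R8 (chr15:873301-873400, minus strand), which is also L3 among the most used starts of T2, rested largely on 1 library. It gave 9 and 4 molecules in T1, and 31377 and 441 in T2. After scaling, T2 replicate 1 was 50.0-fold above T2 replicate 2, against 0.576- to 4.90-fold for the other 11 rises. Its log2 change of 10.45 had the largest standard error of the 12, 2.18 (adjusted p = 0.0012). All 12 rises kept their direction and their call in the 20 alternatives, each library left out included.

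**Figure D3:**
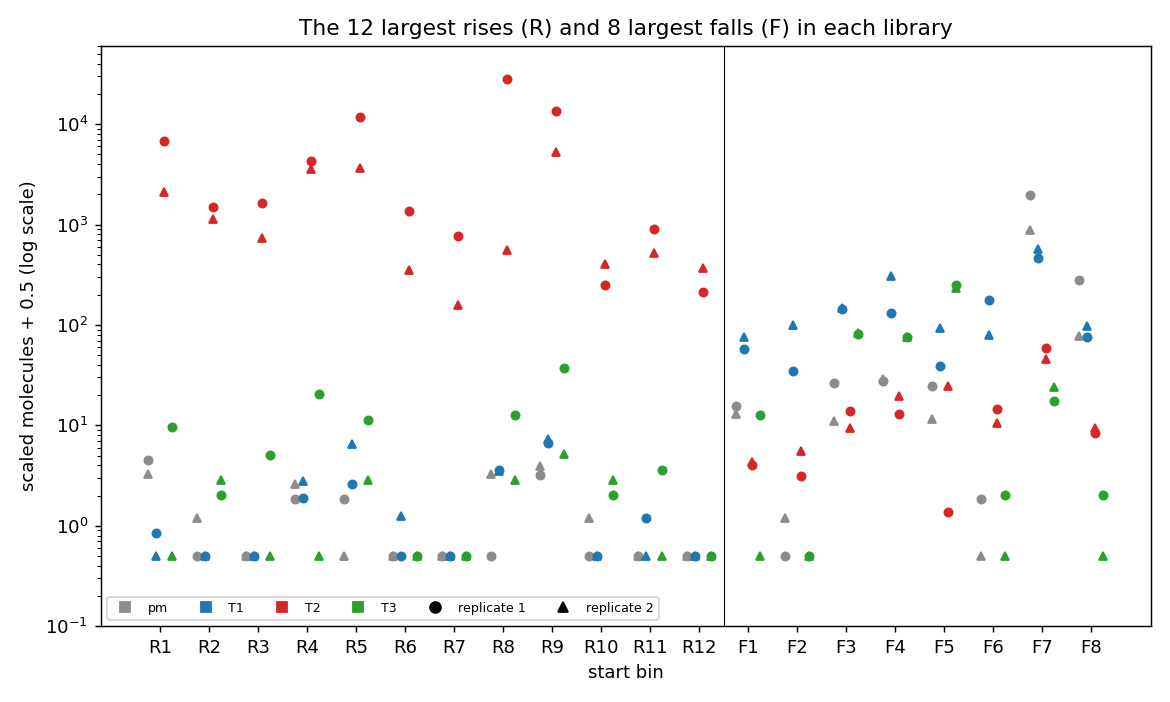
Scaled molecules plus 0.5 (y axis, log scale) at the 12 largest rises, R1 to R12, and the 8 largest falls, F1 to F8 (x axis), in every library, with colours for the stage, circles for replicate 1 and triangles for replicate 2. R1 to R12 are high in T2 alone, with R8 50.0-fold apart between its T2 replicates, and F5 is higher in T3 than in T1.

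The 8 largest falls, F1 to F8, fell to between 1 and 66 molecules per T2 library. F1 (chr4:235401-235500, minus strand) gave 164 and 99 molecules in T1, and 4 and 3 in T2. Its log2 change was -3.94 ± 0.89 (adjusted p = 0.00237). F2 (chr13:827801-827900, minus strand) gave 99 and 130 in T1, and 3 and 4 in T2, and its molecules were short, with a median of 344 nt in both T1 libraries. F3 (chr14:482301-482400, plus strand) fell from 418 and 193 to 15 and 7, a log2 change of -3.67 ± 0.71 (adjusted p = 0.00064). F4 (chr3:230401-230500, minus strand) fell from 380 and 404 to 14 and 15, a log2 change of -3.59 ± 0.72 (adjusted p = 0.000818). F3 gave 53 and 35 molecules in T3 and F4 gave 49 and 32, against 19 and 15 (F3) and 20 and 41 (F4) in pm.

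F7 (chr1:17901-18000, plus strand) was the most used of the falls, with 1321 and 751 molecules in T1, and 66 and 36 in T2. Its log2 change was -3.26 ± 0.62 (adjusted p = 0.000546). In pm it gave 1449 and 1273 molecules, and in T3 11 and 10. F7 molecules were the longest of the 8, with a median of 1506 nt, and 99.7% of them ended in chr1:19401-19500. F8 (chr10:67901-68000, minus strand) fell from 215 and 127 molecules to 9 and 7. It gave 204 and 110 in pm, and 1 and 0 in T3.

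F6 (chr5:542001-542100, plus strand) fell from 507 and 105 molecules to 16 and 8, a log2 change of -3.32 ± 0.80 (adjusted p = 0.00397). It lay 300 nt downstream of the most used T1 start with the same end, and 2914 scaled T1 molecules per library passed over it on the same strand. Its main end bin, chr5:542801-542900, adjoined that of R11 on the other strand. F6 lost its call without T1 replicate 1 (adjusted p = 0.0798). F5 (chr15:412701-412800, minus strand) went from 112 and 123 molecules to 1 and 19, and stood at 162 and 99 in T3. F5 lost its call without T1 replicate 2 (adjusted p = 0.0739) and without T2 replicate 1 (adjusted p = 0.467), where its log2 change was -1.21. With each pair of positions counted once, its log2 change was -2.23 (adjusted p = 0.0788).

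End sites followed the starts. Of 10893 end bins tested, 1627 were higher in T2 (14.9%) and 295 lower (2.71%). With library totals as the scale the counts were 1172 and 1497, and 925 higher and 295 lower end bins were called the same way under all 3 scalings. The count moved with the libraries in the fit. It was 686 without T1 replicate 1, 916 without T1 replicate 2, 2899 without T2 replicate 2 and 274 with only the T1 and T2 libraries in the fit, against 1922 in all. For 1969 of the 2610 higher start bins (75.4%), the end bin that took most of their molecules was itself higher, against 17.5% of all tested start bins. For none was it lower. For 309 of the 589 lower start bins (52.5%), the main end bin was lower, against 5.47% of all tested start bins. These counts use the same molecules at both ends and are a description.

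Where the higher starts lay was read from the molecules, by comparing each start bin with the most used T1 start whose molecules ended in the same 100-nt end bin or its neighbours. For 1013 of the 2610 higher starts (38.8%), fewer than 5 scaled T1 molecules per library ended there, so the transcript as a whole was low in T1. This was the case for 12.9% of all tested bins. Another 776 higher starts (29.7%) were the main T1 start or a bin beside it, against 51.7% of all tested bins. Downstream of the main T1 start lay 634 (24.3%, against 26.9% of all tested), and upstream lay 187 (7.16%, against 8.58%). Starts shared ends in general, since the 13986 tested bins had 6105 main end bins and the 2610 higher bins had 1335. The lower starts were the main T1 start or beside it in 58.9% of cases. No T1 transcript is a state that the contrast itself favours, so these shares are a description.

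Molecules of higher starts were shorter, with a median over bins of 646 nt, against 778 nt over all tested bins and 969 nt for the lower bins. The median molecule was under 200 nt in 6.36% of the higher bins and in 2.42% of all tested bins. T2 replicate 2, the library with more short molecules, moved with this. Without its molecules, a choice made after seeing the data, the medians were 666 nt for the higher and 785 nt for all tested bins, and 5.56% and 2.08% of the bins were under 200 nt. Without T2 replicate 1 the medians were 611 and 770 nt. Part of the higher starts lay in pairs that ran away from each other. Of the 2610 higher bins, 551 (21.1%) had another higher start within 500 nt upstream on the opposite strand. The share was 7.04% over all tested bins and 1.87% for the lower bins. T1 molecules on the opposite strand crossed 303 higher starts (11.6%) with at least 5 scaled molecules per library, against 8.54% of all tested starts.

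The T2 replicates differed at part of the higher starts. Of 1094 higher bins with a mean of at least 20 molecules, 128 (11.7%) were at least 8-fold higher in T2 replicate 1 than in replicate 2, and 20 were so the other way. In T1 the same bins gave 4 and 1. Over all 2610 higher bins the median scaled T1 levels were 1.04 and 0.76, and such low levels can hardly show an 8-fold gap. The T2 replicates also differed elsewhere, since 129 of 3849 bins that were not called (3.35%) were at least 8-fold higher in replicate 1 and 62 in replicate 2. In T1 these 3849 bins gave 2 and 0. The 128 bins held 7.43% of the molecules of T2 replicate 1 and 0.616% of those of replicate 2. Among those with the highest T2 level was a start at chr14:263401-263500 (minus strand), with 8085 and 507 molecules in T2, and 730 and 699 in T1. Another, at chr2:725001-725100 (plus strand), had 4087 and 353 in T2, and 3 and 2 in T1. The 20 bins higher in replicate 2 gave short molecules, with a median over bins of 144 nt, and 14 of them had a median under 200 nt. These starts were picked for the gap between replicates. The count of higher start bins was 2162 without T2 replicate 1 and 3000 without T2 replicate 2. Of the 2610 higher bins, 1925 were called higher again without T2 replicate 1 and 2376 without T2 replicate 2.

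**Figure D4:**
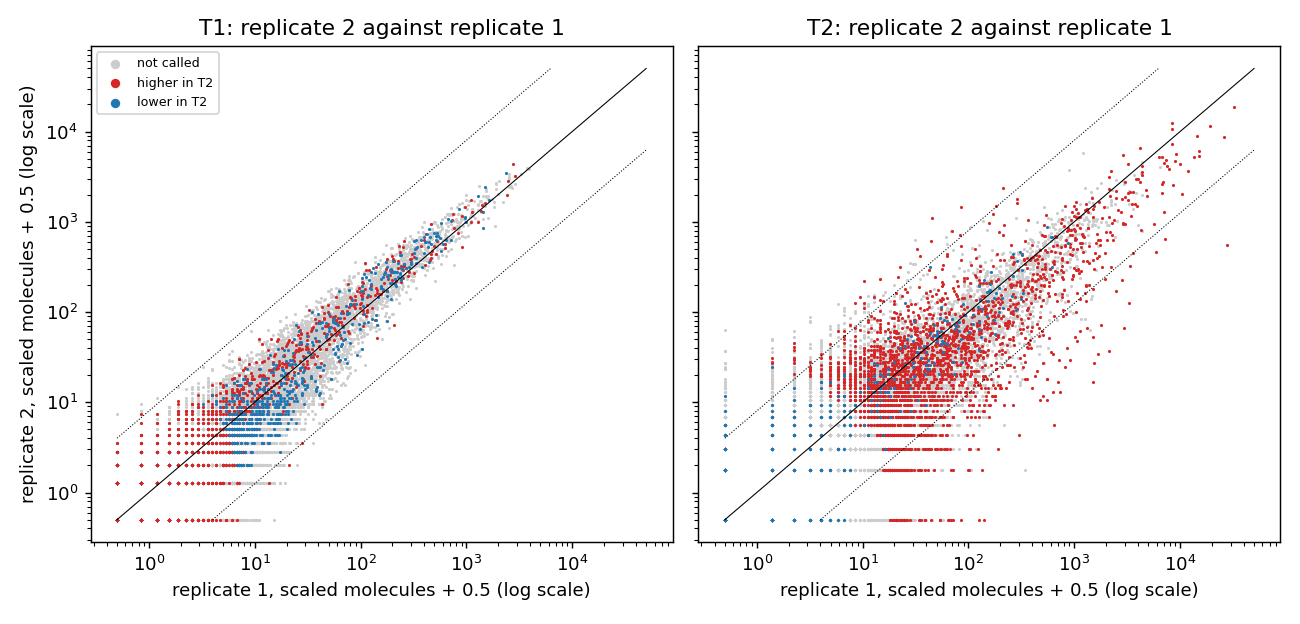
Replicate 2 (y axis) against replicate 1 (x axis) in scaled molecules plus 0.5 on log scales, for T1 (left) and T2 (right), over the 13986 tested start bins, with a solid line of equal level and dotted lines at 8-fold. More called bins leave the dotted band in T2, where 128 of the 1094 higher bins with a mean of at least 20 molecules lie below it.

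Few ends were called for a change in the starts that served them, which does not show that the others kept theirs. Among molecules with the same end bin, the split over start bins was tested with limma diffSplice, and 81 of 3430 end bins were called (2.36%, F test, adjusted p under 0.05). In 38 of the 81 the most used start stayed the same or moved by 1 bin. In 32 the most used T2 start lay downstream of the T1 one, and in 11 upstream. Over all 3430 ends the most used start kept its place in 3071, moved downstream in 244 and upstream in 115. The number of called ends was 5 without T1 replicate 1, 3 without T1 replicate 2, 41 without T3 replicate 1, 39 without T3 replicate 2 and 8 with only the T1 and T2 libraries in the fit.

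The 4 called ends with the largest change in the share of a start are named C1 to C4. They were taken from called ends with a mean of at least 50 molecules and no overlap in share between the T1 and T2 libraries. C4 (chr4:83401-83500, plus strand) went over to a start 600 nt further upstream. The downstream start, chr4:82801-82900, gave 23 of 31 and 13 of 19 molecules in T1 (74.2% and 68.4%). In T2 it gave 6 of 181 and 8 of 102 (3.31% and 7.84%), with adjusted p = 0.0065 for the end. The upstream start, chr4:82201-82300, rose from 8 and 6 molecules to 175 and 94, so the T2 transcript spanned 1207 nt between the most used positions instead of 580 nt. The downstream start went from 23 and 13 molecules to 6 and 8 before scaling. The size factors were 2.88 and 1.32 in T1 and 1.13 and 0.79 in T2, so these counts do not show a fall.

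The other 3 changes involved very short T2 molecules. At C1 (chr5:109101-109200, minus strand), the start at chr5:109701-109800 gave 50 of 53 and 14 of 14 molecules in T1, and 10 of 146 and 33 of 776 in T2. The rest of the T2 molecules began at chr5:109201-109300, which lay 70 nt from the end between the most used positions. At C3 (chr13:378801-378900, plus strand), the start at chr13:377601-377700 gave 113 of 122 and 53 of 54 molecules in T1 (92.6% and 98.1%). In T2 it gave 10 of 24 and 7 of 49 (41.7% and 14.3%). The other molecules spanned 58 nt. These short molecules also prevailed in pm, with 27 of 29 and 23 of 24. At C2 (chr5:400101-400200, minus strand), the L4 start took 7 of 89 and 8 of 83 molecules in T1, and 1602 of 1784 and 4488 of 4948 in T2, with adjusted p = 0.000138 for the end. These molecules spanned 125 nt. C1, C3 and C4 lost their calls with only the T1 and T2 libraries in the fit (adjusted p = 0.471, 0.192 and 0.0676). All 4 lost them when either T1 library was left out (adjusted p from 0.0511 to 0.273). C1 also lost its call without pm replicate 2 (0.0631) and without T3 replicate 2 (0.0502). C3 lost it without T2 replicate 2 (0.0760) and with each pair of positions counted once (0.0833), and C4 without T2 replicate 1 (0.0762). In these fits the log2 relative changes kept their sign, and that of C1 was -8.36 with all libraries and -8.23 with only T1 and T2. Among molecules of at least 200 nt, 78 ends were called, and of the 4 named changes only C4 could still be tested.

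**Figure D5:**
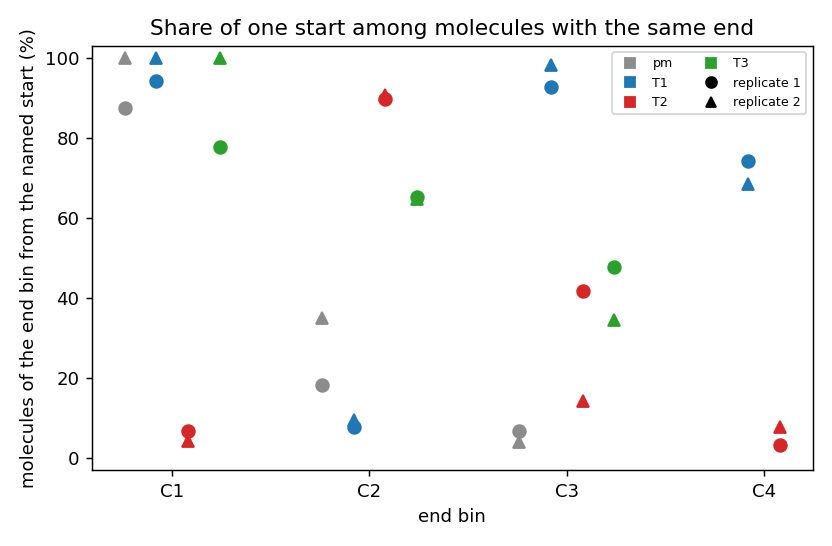
Share of an end's molecules that came from its named start (y axis, percent) for the ends C1 to C4 (x axis), in each library with at least 5 molecules, with colours for the stage, circles for replicate 1 and triangles for replicate 2. The T1 and T2 libraries do not overlap at any of the 4 ends, as the rule that picked these ends required.

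The choice of end for a given start showed no called change. Of 3204 start bins with more than one end bin, 0 passed the test (limma diffSplice, adjusted p under 0.05), 135 had an unadjusted p under 0.05, and limma-trend called 6. The count was 59 without T2 replicate 1 and 18 without T2 replicate 2. Mean length per start bin did not pass for any of 2329 bins (limma, 155 with an unadjusted p under 0.05). The median log2 difference in length was -0.01, and 242 bins passed without T2 replicate 1, of which 240 had shorter molecules in T2. Per end bin, 2 of 2546 bins passed (0.0786%), and both are named here after their values were seen. At chr5:400101-400200, the end C2, the mean length was 1014 and 1001 nt in T1, and 119 and 112 nt in T2 (adjusted p = 0.00211). At chr13:320701-320800 (minus strand) it was 902 and 926 nt in T1, and 424 and 439 nt in T2 (adjusted p = 0.0147). The count of such end bins was 239 without T2 replicate 1, 57 without T2 replicate 2 and 0 when either T1 library was left out.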

How the data were processed

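TIF-Seq2 libraries of 4 stages were sequenced on a NextSeq 500 by the authors. Per the study's methods, reads were mapped to the SK1 assembly, pairs that mapped uniquely and to a single chromosome were retained, and bedtools wrote them as positions. The submitters' processing notes also name cutadapt 1.16 and STAR 2.5.3a, with no role given. The amount of input RNA differs between the sources and is not given here. The deposited files hold 1 molecule per line, with the positions of both reads, strands and a mapping score that is the same on every line. These files carry no count per feature and no normalised value, and no 2 molecules of a library shared both ends and the 8-nt molecular identifier.

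Molecules on the 16 chromosomes were counted by 5′ end and by 3′ end in 100-nt bins per strand, 1-based. Bins with a mean of at least 5 molecules over the T1 and T2 libraries were compared with limma 3.58.1 voom in R 4.3.3, with all 8 libraries fitted together on stage alone and the median of ratios as the scale. A call needed an adjusted p under 0.05 and a 2-fold change. Scaled molecules are counts divided by these size factors. Choice of start or end was tested with diffSplice on pairs of bins, and mean log2 length with limma on bins with at least 20 molecules in each T1 and T2 library. Named bins were the 12 largest rises and 8 largest falls among called bins, and the 5 most used starts of each stage. The 4 largest changes in start share among called ends were also named. All were taken 500 nt apart. Rises, falls and changes in share needed a mean of at least 50 molecules and no overlap between T1 and T2. The bins and lists were chosen with earlier results of these data known. With 2 replicates a stage, p-values for bins and choice measure the spread between replicates over all 8 libraries, pm and T3 included. Those for length rest on the T1 and T2 libraries alone. Steps were tested on simulated data in which few bins or ends changed and every library had the same spread. These settings differ from the data, so the rates need not hold for them. For start bins, 10.9% of 4-fold rises and 13.3% of 4-fold falls were recovered, and 91.5% and 40.0% at 16-fold. For end bins these were 30.0% and 13.5% at 4-fold, and 93.3% and 79.3% at 16-fold. For start choice, 69.0% of the ends with a 16-fold change at 1 start were recovered. Many changes can thus go without a call. Alternatives comprised other scalings, filters, bins, ways of counting, a block for the replicate number, and the omission of each library. Molecules on other sequences, taken as spike-in, were left out.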

Additional observations from a re-analysis of the deposited data

Results flagged for a closer look

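A signal outside the yeast comparison was present in all 4 libraries. Molecules on sequences other than the 16 chromosomes were taken as spike-in. They numbered 9577 over the T1 and T2 libraries, with 4396 and 2217 in T1 and 1460 and 1504 in T2. These were 0.241%, 0.230%, 0.0874% and 0.194% of the lines of a library. They were not used to scale the libraries, and the T2 replicates differed in this share.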

How the results depend on the processing

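The direction balance depended on scaling, as given with the results, and the counts of calls depended on the filter and on the libraries in the fit. Called start bins numbered 1273 at a mean of at least 20 molecules, 7051 with no filter, 2014 with only the T1 and T2 libraries, and 2039 when required under 3 scalings, an alternative chosen after seeing the data. End bins gave 1032, 5342, 274 and 1220. Start choice gave 24 at a mean of at least 20 and 8 with only the T1 and T2 libraries. End choice gave 2 with library totals, 6 with limma-trend and 1 with each pair of positions counted once. Length per end bin gave 1 at 50 molecules in each library, 26 with lengths centred per library, 1 with bins shifted by 50 nt, 1 with bins of 200 nt and 11 with molecules of at least 200 nt.

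With each library left out, called start bins ranged from 1853 to 3924, end bins from 686 to 2899, start choice from 3 to 110, end choice from 0 to 59, length per start bin from 0 to 242 and length per end bin from 0 to 239. The share in the 100 most used bins ranged from 23.9% to 24.1% (T1) and 33.5% to 37.9% (T2) for starts, and from 24.3% to 24.4% and 33.1% to 37.9% for ends. The cause was not tested.

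With each pair of positions counted once, the share in the 100 most used bins was 10.9% (T1) and 15.6% (T2) for starts and 12.1% and 17.3% for ends. For T1 starts it was 25.0% with shifted bins, 25.8% with bins of 200 nt, 23.3% with the same 5′ position and molecular identifier counted once and 24.1% for molecules of at least 200 nt. For T1 ends these were 24.6%, 26.2%, 23.9% and 24.4%.

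Labels number the replicates but do not pair them. Deviations of same-numbered T1 and T2 libraries had r = -0.301 over 13986 start bins. With a replicate block, 2934 start bins, 1708 end bins, 56 start choices and 1 end choice were called, with 0 and 1 for length per start and end bin.

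Of the named starts, R1 to R12 kept direction and call in all 240 values. Changes of sign occurred only where no call was made: E1 gave -0.88 to 0.044 with each library left out and 0.12 with each pair of positions once, E2 gave -0.41 with totals and -0.51 with the upper quartile, E4 gave -0.73 to 0.43 with each library left out and 0.27 with each pair once, and E5 gave 0.14 with each pair once.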
